A study of Homo sapiens with 6 samples.

Results

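Integrins are receptors in the cell membrane that bind the extracellular matrix, each built from an alpha and a beta chain. Laminins are large matrix proteins of basement membranes, each assembled from an alpha, a beta and a gamma chain, and several integrins use them as ligands. Thyroid follicles are epithelial and rest on a basement membrane, to which their cells attach through such receptors. The chain genes were taken by symbol, as ITGA or ITGB followed only by digits, ITGAV, or LAMA, LAMB or LAMC followed by 1 digit. The rule found 32 of the 22354 loci in the table of gene counts: 12 integrin alpha, 8 integrin beta, 5 laminin alpha, 4 laminin beta and 3 laminin gamma chains.

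The RNA came from HTori-3.1, an immortalised line of normal human thyroid follicular epithelium. Of the 6 libraries, 3 are labelled control with a wild-type genotype and 3 are labelled BMAL1 knockout, made with lentiviral Cas9 and a guide RNA against BMAL1 (a circadian transcription factor), puromycin selection and the choice of single clones. How many clones underlie the 3 libraries is not stated, so the genotype and a difference between clones cannot be told apart. Control and knockout-labelled cells alike received 2 μM etoposide, which poisons topoisomerase II and breaks DNA, to induce senescence, for 24 h by the protocol and 12 h by the treatment label. The comparison asks how expression differs between these groups under etoposide. Total counts were 26893063, 27029060 and 28513703 in the control libraries and 43148059, 29860233 and 43563391 in those labelled knockout. Values are given as CPM, the counts of a gene per 1e6 after TMM scaling of the libraries. The labels do not say that the 3 libraries of a group came from separate cultures, so p-values measure only the spread between these libraries, which may be technical.

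The mRNA of the targeted gene was higher in the libraries labelled knockout. BMAL1 (ENSG00000133794.20, chr11:13276652-13387266 of hg38, forward strand) was measured at 11.3, 12.2 and 14.6 CPM in the control libraries and at 17.9, 19.7 and 19.4 CPM in the libraries labelled BMAL1 knockout. Its log2 fold change was 0.58 with a standard error of 0.11 (edgeR's quasi-likelihood test, Benjamini-Hochberg adjusted p = 0.0237). Without control replicate 1, control replicate 2, knockout replicate 2 or knockout replicate 3 the adjusted p of that test was 0.105, 0.129, 0.0817 and 0.0598. An edit by Cas9 need not lower the mRNA of its target, and protein, which the study examined by western blot, is not among the data analysed here. The groups are therefore named by their labels throughout, and every direction below is that of the libraries labelled BMAL1 knockout relative to control.

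In the libraries labelled BMAL1 knockout 6 chain genes changed, by percentages from -30.9% to -21.6%. They include the genes of the laminin-binding integrin alpha chains ITGA6 and ITGA3, of the vitronectin receptor chain ITGB3, and of the laminin chains LAMB3 and LAMB1; not every gene counted is described singly below. ITGB1, the shared partner of most of the alpha chains, and LAMA3, a partner of LAMB3, were not called. After the filter on low counts 26 of the 32 genes were tested; 25 of these had at least 10 counts in every library of both groups, the exception being ITGA9. At an adjusted p under 0.05 over all 14860 loci tested, 6 of the 26 were lower, where 1.36% of all loci tested were lower (202 loci). The same edgeR test called 0 of the 26 higher, where 1.01% of all loci were higher (150 loci). At an unadjusted p under 0.05, 2 were higher and 9 lower, where 9.1% of all loci were higher and 7.76% lower. DESeq2 called 1 higher and 7 lower (2.09% and 2.6% of all loci), and limma-voom 0 higher and 6 lower (0.794% and 1.31%). All 3 libraries labelled knockout lay below all 3 control libraries for 9 chain genes and above them for 2, where 11.5% of all loci tested lay lower and 11.8% higher in this way. The median log2 fold change of the 26 was -0.10, against 0.0097 over all loci tested. The called chain genes are abundant. With a mean of at least 50 CPM, a limit chosen after the values were seen, 6 of 14 chain genes were called lower. Of the 4876 loci at such levels 1.89% were called lower and 0.308% higher. In bulk RNA, fewer cells of a kind and less RNA per cell cannot be told apart for any of these genes.

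**Figure D1:**
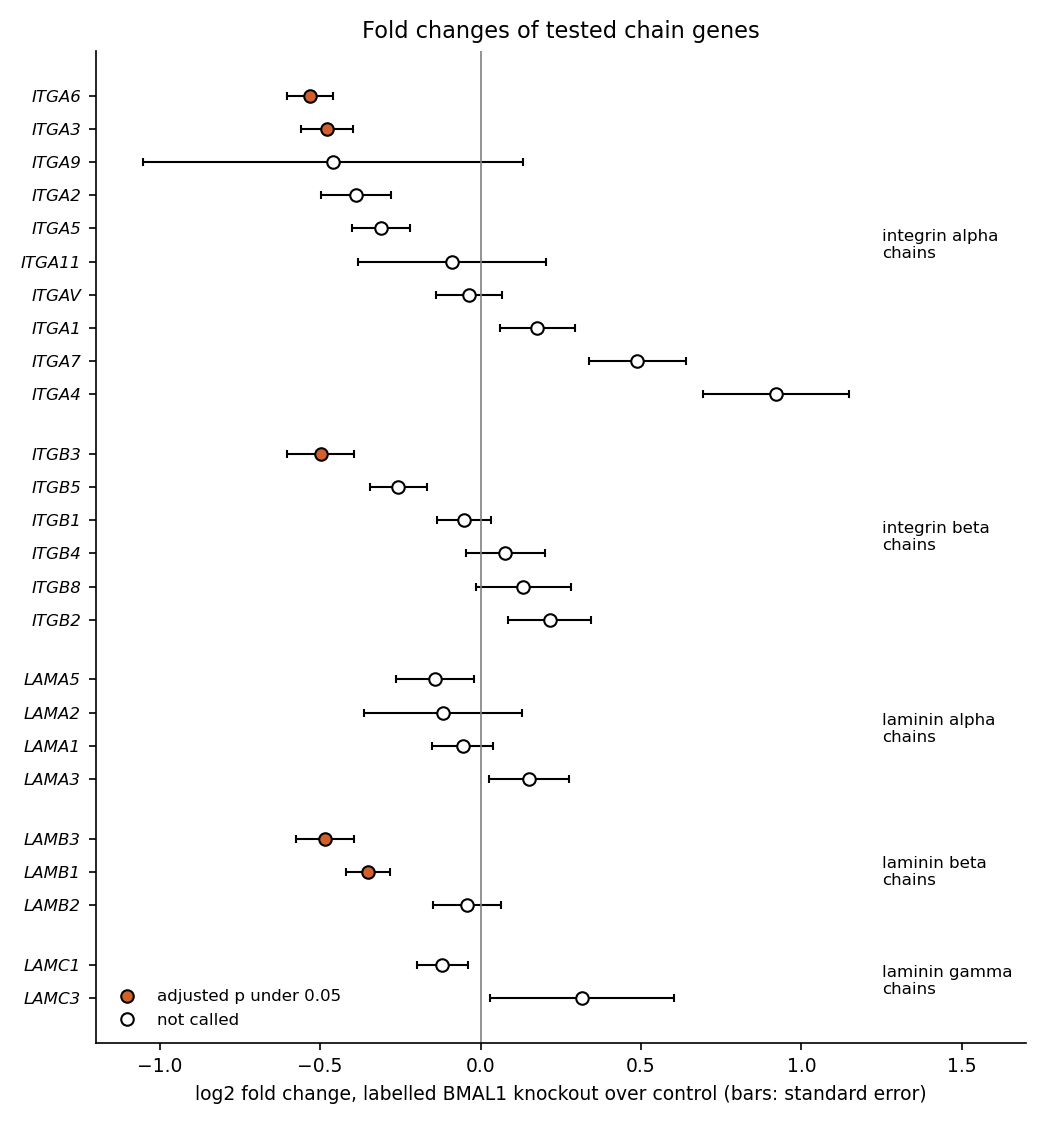
Fold changes of 25 tested chain genes by family, as log2 of the libraries labelled BMAL1 knockout over control (3 libraries each); bars are standard errors and filled points have an adjusted p under 0.05. The filled points lie between -0.53 and -0.35, and ITGA4 lies farthest to the right at 0.92.

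The levels of the chains spanned several orders of magnitude, and their order was largely the same in both groups. Per length, in CPM per kilobase of the canonical transcript, ITGB1 was the most abundant chain in all 6 libraries, with means of 428 in control and 413 in the libraries labelled knockout. ITGA3 followed at 125 and 89.5, and LAMC1 at 57.2 and 52.6, each keeping its place in all 6 libraries. Of the 32 genes, 14 had a control mean of at least 10 on this scale. LAMB3 and ITGAV exchanged places 4 and 5 among the group means, at 39.7 and 37.8 in control and at 28.4 and 36.9 in the libraries labelled knockout. ITGA5 and LAMB1 were close to each other, at 33.1 and 31.8 in control, and their order varied between libraries. The 6 genes that were not tested, ITGA8, ITGA10, ITGB6, ITGB7, LAMA4 and LAMB4, had at most 16 counts in any library and 2 to 63 over all 6.

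Among the laminin receptors, ITGA6 gave the smallest p of all chain genes. Its protein pairs with ITGB1, or with ITGB4 in hemidesmosomes, the junctions that anchor epithelial cells to the basement membrane. ITGA6 (ENSG00000091409.16, chr2:172427354-172506459, forward strand) stood at 90.9, 90.6 and 95.1 CPM in the control libraries and at 64.6, 64.2 and 62.4 CPM in those labelled knockout. The groups lay far apart and were tight within themselves, at 92.2 ± 2.46 and 63.8 ± 1.16 CPM (SD, n = 3 each). The log2 fold change was -0.53 with a standard error of 0.072 (edgeR, Benjamini-Hochberg adjusted p = 0.00331), and the call held in all 6 fits that each left out 1 library, where the adjusted p ranged from 0.00191 to 0.0283. Exons of 3 antisense loci overlap ITGA6, and none of them is in the table.

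ITGA3 encodes the other main laminin-binding alpha chain of epithelia and pairs with ITGB1. ITGA3 (ENSG00000005884.18, chr17:50055968-50090481, forward strand) was measured at 607, 622 and 601 CPM in control and at 398, 437 and 477 CPM in the libraries labelled knockout. All 3 of the latter lay below every control library, and they were more spread out (609.9 ± 10.8 and 438 ± 39.6 CPM, SD, n = 3 each). Its log2 fold change was -0.48, with a standard error of 0.080 (edgeR, Benjamini-Hochberg adjusted p = 0.0107). The adjusted p of the same test was 0.0763 without control replicate 2 and 0.0539 without control replicate 3.

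ITGA7, which pairs with ITGB1 as a laminin receptor best known from muscle, was low. It stood at 7.56, 9.23 and 5.96 CPM in control and at 9.93, 10.3 and 11.6 CPM in the libraries labelled knockout. The groups did not overlap, yet the gene was not called (log2 fold change 0.49, standard error 0.15, edgeR, Benjamini-Hochberg adjusted p = 0.122). ITGA7 shares exons with BLOC1S1 on the opposite strand, which stood at 13.9 and 16.2 CPM. Whether reads were counted by strand is not stated, so reads of the overlapping genes cannot be told apart from those of ITGA7.

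ITGB4, which pairs with ITGA6 alone and is the beta chain of hemidesmosomes, overlapped between the groups at 22.4 ± 3.34 and 23.6 ± 2.60 CPM (SD, n = 3 each). Its log2 fold change was 0.08, with a 95% interval from -0.19 to 0.35. ITGB1 overlapped as well, at 1599 ± 101 and 1543 ± 145 CPM (SD, n = 3 each), with a log2 fold change of -0.05 and a 95% interval from -0.24 to 0.13. Neither interval reaches the estimate of ITGA6. The sign of these estimates turned without control replicate 3 for both (-0.00443 for ITGB4 and 0.00503 for ITGB1) and without knockout replicate 3 for ITGB4 (-0.00517).

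The fibronectin and vitronectin receptors were measured through ITGA5, ITGAV and their beta chains. ITGB3 pairs with ITGAV to bind vitronectin and other ligands that carry the RGD motif. ITGB3 (ENSG00000259207.10, chr17:47253827-47313743, forward strand) was measured at 110.2, 112 and 131 CPM in control and at 72.0, 85.0 and 93.3 CPM in the libraries labelled knockout. The highest library labelled knockout lay below the lowest control library. Exons of ENSG00000259753 overlap ITGB3 on the same strand, and that locus had means of 0 and 0.453 CPM. The log2 fold change was -0.50, with a standard error of 0.10 (edgeR, Benjamini-Hochberg adjusted p = 0.0318). This call was lost without control replicate 1, 2 or 3 or without knockout replicate 2, with adjusted p of the same test at 0.0580, 0.0977, 0.119 and 0.0781.

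ITGAV, the common alpha chain of these receptors, was at 266 ± 43.8 and 259.7 ± 2.37 CPM (SD, n = 3 each). The wide control spread came from control replicate 3 at 316 CPM, against 244 and 237 CPM in the other control libraries. ITGA5, which pairs with ITGB1 as the classical fibronectin receptor, was measured at 146, 147 and 129 CPM in control and at 101, 122 and 118 CPM in the libraries labelled knockout. Its groups did not overlap, but it was not called (log2 fold change -0.31, standard error 0.091, edgeR, Benjamini-Hochberg adjusted p = 0.104), except by DESeq2 (0.0328) and with the GC trend removed (0.0113). ITGB5, another partner of ITGAV, stood at 81.7, 75.5 and 67.6 CPM in control and at 59.1, 63.1 and 66.1 CPM in the libraries labelled knockout. Here the nearest libraries of the groups almost met, and the gene was not called (log2 fold change -0.26, standard error 0.089, edgeR, Benjamini-Hochberg adjusted p = 0.167). ITGB8, which with ITGAV binds latent TGF-beta, overlapped between the groups, at 146 ± 34.8 and 159.7 ± 18.2 CPM (SD, n = 3 each).

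Of the collagen receptors, ITGA2 was measured at 14.3, 14.5 and 14.7 CPM in control and at 12.2, 11.03 and 9.99 CPM in the libraries labelled knockout. The control libraries were nearly alike and all lay above the others, without a call (log2 fold change -0.39, standard error 0.11, edgeR, Benjamini-Hochberg adjusted p = 0.0899; 0.0308 without knockout replicate 1). ITGA1, which lies 30.1 kb from ITGA2 on chromosome 5 and encodes a related collagen-binding chain, overlapped between the groups at 15.2 ± 1.16 and 17.2 ± 2.28 CPM (SD, n = 3 each). ITGA1 shares exons on the same strand with PELO, which stood at 45.8 and 44.4 CPM, so its own level is uncertain. ITGA11 was near 1 CPM in both groups, at 1.12 and 1.06.

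ITGA4, best known from leukocytes as a receptor for VCAM1 and fibronectin, had the largest estimate upward among the chain genes, at a low level. It was measured at 1.94, 2.28 and 1.93 CPM in control and at 4.99, 3.67 and 2.96 CPM in the libraries labelled knockout. These values correspond to 52, 61 and 54 counts in control and to 213, 112 and 131 counts. Every library labelled knockout lay above every control library, with a log2 fold change of 0.92 and a standard error of 0.23, but the gene missed the threshold (edgeR, Benjamini-Hochberg adjusted p = 0.0590). It passed under 7 of 16 alternatives, among them the fit without knockout replicate 3 at 0.0260, and the adjusted p of these tests ranged from 0.0162 (DESeq2) to 0.178. The opposite-strand neighbour CERKL, whose exons overlap ITGA4, had means of 0.0606 and 0.0327 CPM. ITGB2, the leukocyte beta chain, was measured at 11.9 ± 1.06 and 13.8 ± 2.02 CPM (SD, n = 3 each) with overlapping groups, and ITGA9 at 0.317 and 0.248 CPM.

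**Figure D2:**
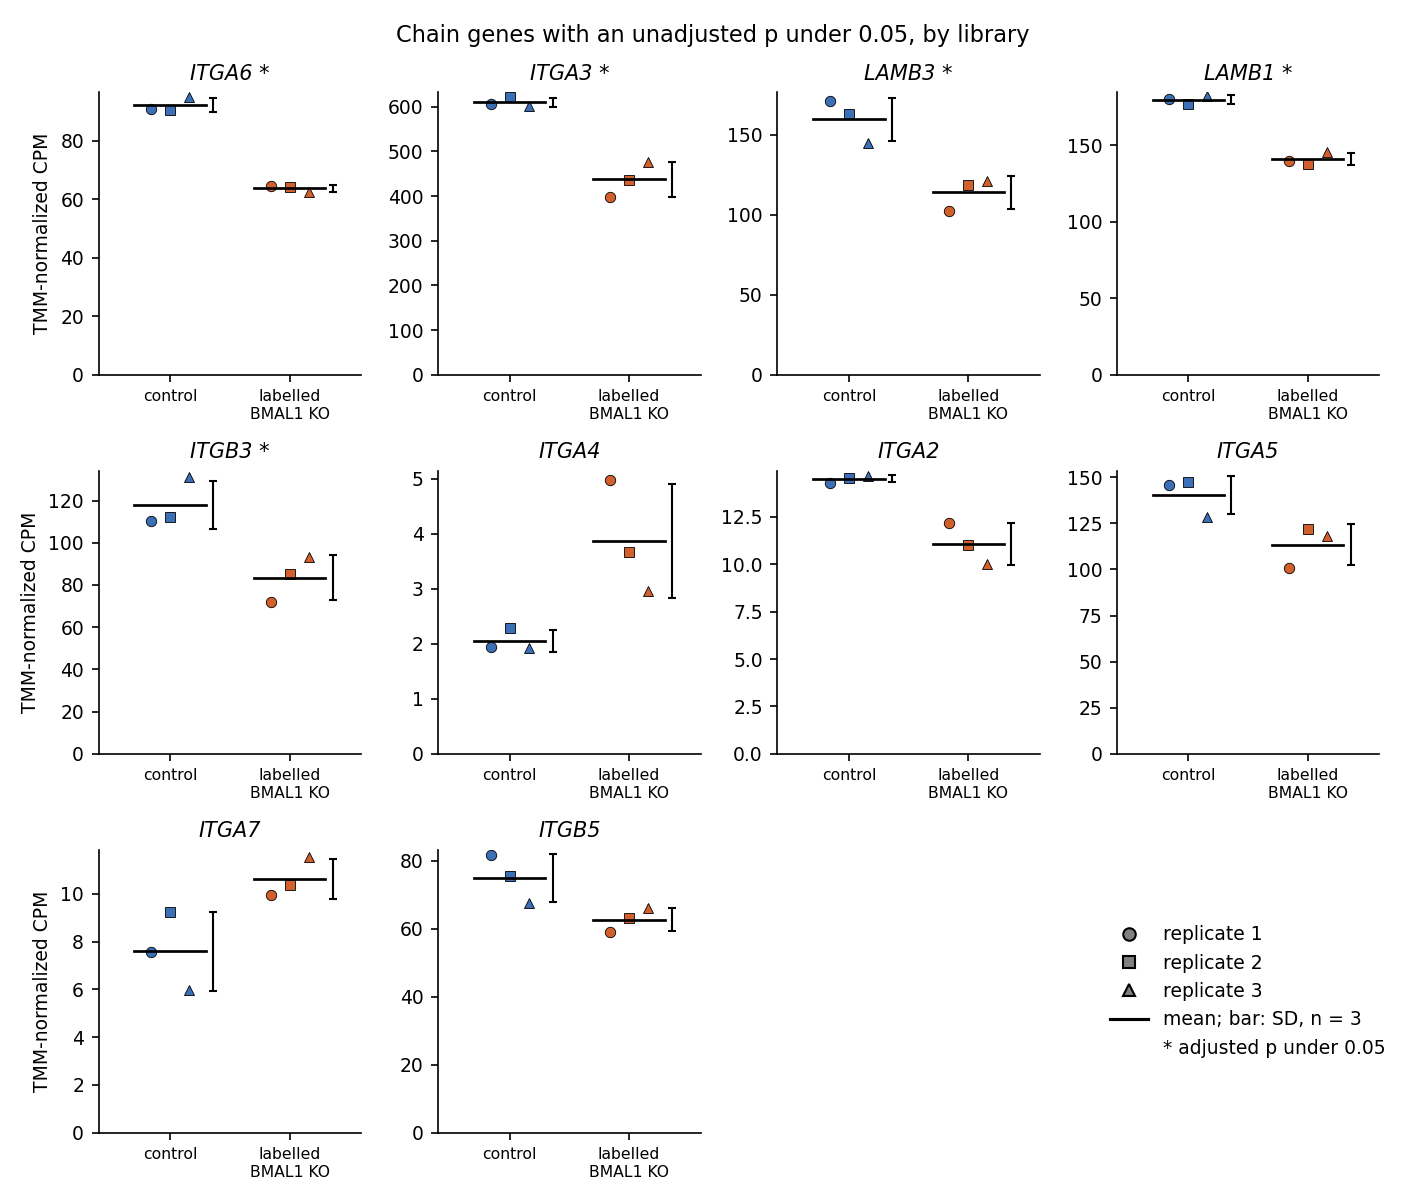
TMM-normalized CPM of 10 chain genes with an unadjusted p under 0.05, 1 point per library, with the mean and SD of each group (n = 3) and axes from 0; an asterisk marks an adjusted p under 0.05. In all 10 panels the groups do not overlap, and ITGA4 and ITGA7 are the panels in which the libraries labelled BMAL1 knockout lie higher.

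LAMB3 and LAMA3 encode a beta and an alpha chain of the laminin that lies beneath hemidesmosomes. LAMB3 (ENSG00000196878.15, chr1:209614870-209652425, reverse strand) was measured at 171, 163 and 145 CPM in control and at 102, 119 and 121 CPM in the libraries labelled knockout. The groups did not overlap, although control replicate 3 and knockout replicate 1 were each the lowest of their group. The log2 fold change was -0.49, with a standard error of 0.091 (edgeR, Benjamini-Hochberg adjusted p = 0.0183). By the same test the adjusted p was 0.0851 without control replicate 1 and 0.0999 without control replicate 2. LAMA3, the alpha chain of this laminin, overlapped between the groups at 18.5 ± 1.82 and 20.6 ± 3.03 CPM (SD, n = 3 each), with a log2 fold change of 0.15 and a 95% interval from -0.12 to 0.42.

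LAMB1 encodes a beta chain of many other laminin trimers, and LAMC1 the gamma chain that most of them share. LAMB1 (ENSG00000091136.15, chr7:107923799-108003213, reverse strand) was measured at 180.3, 177 and 182 CPM in control and at 139, 138 and 145 CPM in the libraries labelled knockout. Both groups were tight and lay well apart, at 179.6 ± 2.77 and 141 ± 3.99 CPM (SD, n = 3 each). The log2 fold change was -0.35, with a standard error of 0.069 (edgeR, Benjamini-Hochberg adjusted p = 0.0233). The adjusted p of this test was 0.104, 0.116 and 0.0709 without control replicate 1, 2 or 3, and 0.132 without knockout replicate 2. The LAMB1 call was also lost with the replicate number as a block (edgeR, adjusted p = 0.0806). On the opposite strand, exons of DLD overlap LAMB1; DLD stood at 222 and 244 CPM, with a log2 fold change of 0.14. LAMC1, the gamma chain, overlapped between the groups at 453 ± 10.6 and 417 ± 36.8 CPM (SD, n = 3 each).

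The laminin alpha chains, which carry the main integrin-binding sites, held no called gene in the edgeR test, and 0 of the 4 tested had an unadjusted p under 0.05. LAMA5, found in most adult basement membranes, took most of their summed level per length, 74.7% in control and 72.6% in the libraries labelled knockout, and stood at 229 ± 26.1 and 207 ± 34.7 CPM (SD, n = 3 each). Exons of ADRM1, at 173 and 170 CPM, overlap LAMA5 on the opposite strand, so the level and share of LAMA5 are uncertain. LAMA1, better known from embryonic basement membranes, was at 47.3 and 45.5 CPM and LAMA2, the chain of muscle, at 1.29 and 1.21 CPM. LAMB2, the alternative to LAMB1, was at 95.1 ± 8.36 and 92.3 ± 13.1 CPM (SD, n = 3 each) and LAMC3 at 1.44 and 1.79 CPM. All of these overlapped between the groups.

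Since trimers and receptor pairs need partner chains, 19 ratios of levels per length were formed within each library, where the scaling between libraries cancels. LAMB3 over LAMA3 was 22.2, 23.9 and 22.7 in control and 15.8, 13.8 and 14.8 in the libraries labelled knockout. All 3 libraries labelled knockout lay below all control libraries, by -0.63 on the log2 scale between the group means. The size of this ratio depends on which LAMA3 transcript is taken for its length, while the difference between groups does not.

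ITGA6 over ITGB4 had a mean of 4.24 ± 0.683 in control and 2.77 ± 0.355 in the libraries labelled knockout (SD, n = 3 each). ITGA3 over ITGB1 was 0.292 ± 0.0213 and 0.219 ± 0.0369, and ITGB3 over ITGAV 0.529 ± 0.0353 and 0.381 ± 0.0513 (SD, n = 3 each). In each of these 3 the groups did not overlap. LAMB1 over LAMC1 was 0.556 ± 0.0059 and 0.476 ± 0.0372 (SD, n = 3 each), also without overlap. Over the 19 ratios, 9 lay lower in every library labelled knockout, 1 lay higher (ITGA4 over ITGB1) and 9 overlapped. For the levels of single loci, 11.5% of all tested lay lower and 11.8% higher in this way. The ratios are not independent, as 8 of the 19 contain ITGB1. Every ratio that lay lower, except ITGA2 over ITGB1, has a called gene as numerator, so the count largely repeats those calls. Each ratio without overlap had p = 0.1 in an exact permutation test counting both directions, the smallest p that 3 libraries against 3 allow, and 0.19 after Benjamini-Hochberg adjustment over the 19. No ratio could therefore pass a threshold of 0.05.

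Summed per length within each family, the integrin alpha chains stood at 214, 217 and 220 in control and at 160, 172 and 179 in the libraries labelled knockout, where ITGA3 made up 57.5% and 52.5% of the sums on average. The laminin beta chains summed to 88.3 ± 4.53 and 69.5 ± 5.19 (SD, n = 3 each), without overlap between the groups. The sums of the integrin beta chains, 489 ± 30.8 and 468 ± 34.0, and of the laminin alpha chains, 26.8 ± 2.82 and 24.9 ± 3.64, overlapped (SD, n = 3 each).

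Many chain genes were low together in 1 library. The median over the tested chain genes of the log2 difference from the control mean was -0.247 in knockout replicate 1, against -0.0455 and -0.0193 in the other 2 libraries labelled knockout. It was 0.0359, -0.0244 and -0.0234 in the control libraries. Knockout replicate 1 also stood apart from its group over the loci of the whole table. A chi-square of the counts over its degrees of freedom was 31 and 45 for it against knockout replicates 2 and 3. Those 2 libraries gave 7.43 with each other, and pairs of control libraries 5.41 to 14.5. The low median of this library is thus not shown to be particular to the chain genes. Without knockout replicate 1 the median log2 fold change of the chain genes was -0.0445 and 7 of them were called lower. Leaving out control replicate 1, 2 or 3, knockout replicate 2 or knockout replicate 3 gave 3, 2, 3, 4 and 6 called lower. The loci called lower in the same fits moved as well, from 202 with all libraries to 360 without knockout replicate 1 and to 75, 65, 78, 86 and 146 in the order just given. Fold changes also depended weakly on base composition, with a median log2 difference of 0.0604 for genes with a canonical transcript under 40% GC and of -0.0304 for genes between 50% and 55%. With each library's trend with GC content removed, an alternative added after the data were seen, all 11 chain genes with an unadjusted p under 0.05 were called, 9 lower and 2 higher, while calls over all loci also became more frequent, at 4.15% lower and 3.37% higher.

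The 32 genes lie on 14 chromosomes, and the 6 called genes on 4 of them. LAMB3 is on chromosome 1, ITGA6 on 2, LAMB1 on 7, and ITGB3 and ITGA3 on 17. The 20 nearest tested genes on either side of each called gene had median log2 fold changes near 0, from -0.013 around ITGA3 to 0.023 around ITGA6, except LAMB1, whose neighbours had a median of 0.15.

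RefSeq promoters, 250 bases before to 50 after the start site on GRCh38.p14, were matched by symbol for 23 of the 32 chain genes. Among those without an entry were ITGA3, ITGA7, ITGA9, ITGB2, ITGB3, ITGB4, LAMA1 and LAMC3. Motifs of 2 kinds were searched on both strands, chosen after the fold changes were seen: CACGTG, the E-box that BMAL1 binds with CLOCK, and TGAGTCA or its reverse complement TGACTCA, the AP-1 motif bound by FOS and JUN proteins. Some genes have several promoter entries, and the 23 have 30. The E-box was present in 7.26% of all 35116 entries and in 1 of these 30, in ITGA6. The AP-1 motif was present in 4.95% of all entries and in 3 of the 30, in LAMB3, LAMA3 and ITGA5. Windows of 20 bases on either side are shown for ITGA6, the chain gene with the smallest p, and for LAMB3 and LAMA3, partner chains of which LAMB3 was called and LAMA3 was not. Capitals mark the motif. They lie at chr2:172427215-172427260 (forward strand) for ITGA6, chr1:209651415-209651461 (reverse strand) for LAMB3, and chr18:23872875-23872921 and chr18:23872931-23872977 (forward strand) for LAMA3. The RefSeq start sites of LAMB3 and LAMA3 used here lie inside the annotated genes.
ITGA6 E-box: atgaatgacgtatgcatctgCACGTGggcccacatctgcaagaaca
LAMB3 AP-1: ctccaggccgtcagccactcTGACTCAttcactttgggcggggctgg
LAMA3 AP-1, farther: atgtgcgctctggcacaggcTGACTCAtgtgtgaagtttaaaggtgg
LAMA3 AP-1, nearer: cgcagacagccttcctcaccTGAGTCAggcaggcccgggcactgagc

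The first base of the motif lies 101 bases before the start site in ITGA6, 67 in LAMB3, 125 and 69 in LAMA3 and 6 in ITGA5. These matches are letters in a window and not measured binding sites. The AP-1 letters are found in LAMB3, which was called lower, and in LAMA3 and ITGA5, which were not called in the edgeR test. Whether either motif bears on the levels of these genes was not tested.

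Genes that work with these chains were read as 5 lists. Of 25 genes of integrin activation and focal adhesion, where integrins connect to actin, 24 were tested, with 0 higher and 2 lower in the edgeR test (1.01% and 1.36% of all loci) and a median log2 fold change of -0.099, against 0.0097 over all loci. At an unadjusted p under 0.05, 2 were higher and 7 lower (9.1% and 7.76% of all loci), DESeq2 called 0 higher and 3 lower, and limma-voom 0 and 2. PXN, a scaffold protein of focal adhesions, fell by 0.46 on the log2 scale, with means of 262 ± 18.3 and 191 ± 12.2 CPM (SD, n = 3 each; edgeR, Benjamini-Hochberg adjusted p = 0.0146). ACTN1, an actin crosslinker that binds beta chain tails, fell by 0.34 on the log2 scale from 789.9 CPM in control (edgeR, Benjamini-Hochberg adjusted p = 0.0418). By the same test the adjusted p of PXN was 0.0746, 0.0926 and 0.05 without control replicate 1, control replicate 2 or knockout replicate 2, and that of ACTN1 was 0.166, 0.191, 0.0991 and 0.147 without control replicate 1, 2 or 3 or knockout replicate 2. The ACTN1 call was also lost with scaling by library size only (edgeR, adjusted p = 0.0661) and with the replicate number as a block (0.102). FLNA, the most abundant of the list per length and a linker of integrins to actin, was at 2601 and 2081 CPM and was not called (edgeR, Benjamini-Hochberg adjusted p = 0.139), though DESeq2 (0.0443) and edgeR with the GC trend removed (0.0199) called it.

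Among 18 integrin ligands outside the laminins 14 were tested, with 1 higher and 2 lower in the edgeR test (1.01% and 1.36% of all loci) and a median of -0.091. At an unadjusted p under 0.05, 2 were higher and 3 lower (9.1% and 7.76% of all loci), DESeq2 called 1 higher and 3 lower, and limma-voom 1 and 2. TNC, the matrix glycoprotein tenascin-C, fell from 224 ± 4.44 to 138 ± 14.3 CPM (SD, n = 3 each), by 0.70 on the log2 scale (edgeR, Benjamini-Hochberg adjusted p = 0.00221), and its call held in all 6 fits with 1 library left out. THBS1, thrombospondin-1, fell by 0.42 on that scale from 263 CPM in control (edgeR, Benjamini-Hochberg adjusted p = 0.0127). Without control replicate 1, 2 or 3 or knockout replicate 2 its adjusted p in the same test was 0.0695, 0.0669, 0.0536 and 0.05. NPNT, a basement membrane ligand of the integrin made of ITGA8 and ITGB1, rose by 1.02 on the log2 scale, from 2.37 ± 0.197 to 4.73 ± 0.947 CPM (SD, n = 3 each; edgeR, Benjamini-Hochberg adjusted p = 0.0182). Its adjusted p in that test was 0.0556, 0.0799 and 0.101 without control replicate 1, 2 or 3, and 0.0532 without knockout replicate 3. ITGA8 itself had 3 counts in 1 library of each group and 0 in the others. FN1, the ligand of ITGA5 and the most abundant of this list per length, was at 4266 ± 203 and 3268 ± 425 CPM (SD, n = 3 each) without overlap, and was not called (log2 fold change -0.38, edgeR, Benjamini-Hochberg adjusted p = 0.0573). It was called by DESeq2 (adjusted p = 0.00363), and by edgeR with the GC trend removed (0.0237) and without knockout replicate 1 (0.0229) or knockout replicate 3 (0.0258).

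Of 20 basement membrane partners of the laminins 18 were tested, with 0 higher and 2 lower in the edgeR test (1.01% and 1.36% of all loci) and a median of -0.053. At an unadjusted p under 0.05, 0 were higher and 4 lower (9.1% and 7.76% of all loci), and DESeq2 and limma-voom each called 0 higher and 2 lower. SMOC1, a secreted calcium-binding protein of basement membranes, fell from 2.06 ± 0.366 to 0.549 ± 0.0733 CPM (SD, n = 3 each), by 1.89 on the log2 scale (edgeR, Benjamini-Hochberg adjusted p = 0.00350). COL4A5, a type IV collagen chain, fell by 0.66 on the log2 scale from 5.11 CPM (edgeR, Benjamini-Hochberg adjusted p = 0.0360), and this call was lost without any 1 library: the same test gave 0.116, 0.136 and 0.0988 without control replicate 1, 2 or 3 and 0.0520, 0.101 and 0.0633 without knockout replicate 1, 2 or 3. It was also lost with the replicate block (edgeR, adjusted p = 0.0735) and with libraries thinned to the smallest total (0.0588). SPARC, a collagen-binding glycoprotein and the most abundant of the list per length, overlapped between the groups at 1152 and 1143 CPM.

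Of the 9 genes of hemidesmosomes and other laminin receptors, 0 were called in either direction by edgeR, DESeq2 or limma-voom, 2 were higher and 1 lower at an unadjusted p under 0.05 (9.1% and 7.76% of all loci), and the median was -0.13. The most abundant of them per length was RPSA, a ribosomal protein also described as a laminin receptor, at 728 and 806 CPM. The second mean rests on knockout replicate 1 at 1011 CPM, against 694 and 714 CPM in the other libraries labelled knockout, and the log2 fold change of 0.15 turned to -0.0504 without that library. The level of RPSA is uncertain because the gene has many near-identical pseudogenes. The 6 integrin chains with letter names other than ITGAV were mostly leukocyte chains at low levels. Of these 4 were tested, 0 were called by any of the 3 tools, 1 was higher and 0 lower at an unadjusted p under 0.05 (9.1% and 7.76% of all loci), and ITGAE, the most abundant per length, was at 27.6 and 27.3 CPM.

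The labelled cell type was checked against its markers. Of 11 thyroid follicular markers 3 were tested, and PAX8, a thyroid transcription factor, was the most abundant at 133 and 109.6 CPM, while NKX2-1 and IYD had 0 counts in all libraries and TG, TSHR and SLC5A5 had group means of 0.264 CPM or less. The thyroid markers summed to 173, 174 and 201 CPM in control and to 130.4, 149.6 and 173 CPM in the libraries labelled knockout. The 7 epithelial markers summed to 2989, 3044 and 2897 CPM and to 2540, 2482 and 2563 CPM, led by KRT8, with group means of 0.38 CPM or less for CDH1 and EPCAM. KRT18, a keratin of simple epithelia, fell from 851 to 602 CPM, by 0.50 on the log2 scale (edgeR, Benjamini-Hochberg adjusted p = 0.00587; 0.0561 without control replicate 2). KRT8 stood at 1407 ± 41.4 and 1156 ± 8.11 CPM (SD, n = 3 each) without overlap and was not called (log2 fold change -0.28, edgeR, Benjamini-Hochberg adjusted p = 0.0517). At an unadjusted p under 0.05, 0 of the 6 tested epithelial markers were higher and 2 lower (9.1% and 7.76% of all loci). DESeq2 called 0 higher and 2 lower (2.09% and 2.6% of all loci), as did limma-voom (0.794% and 1.31%). The other 4 had estimates above 0 that were not called, EPCAM among them at very few counts, and the median of the 6 was 0.16.

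Markers of other cell types were near 0 apart from a few genes. COL1A1 led the 7 fibroblast markers at 859.6 and 858.9 CPM, and PDGFRB stood at 19.1 and 21.0 CPM. DCN and LUM had 0 counts in all libraries, and the summed level lay between 717 and 989 CPM. The 4 smooth muscle markers summed to 3.32, 2.69 and 2.57 CPM in control and to 5.27, 4.91 and 4.51 CPM in the libraries labelled knockout, where ACTA2 rose by 0.95 on the log2 scale (edgeR, Benjamini-Hochberg adjusted p = 0.0182). In the same test its adjusted p was 0.0711, 0.0616 and 0.0867 without control replicate 1, 2 or 3 and 0.0535 without knockout replicate 2. The 6 endothelial markers, led by VWF, summed to 2.98, 2.58 and 2.86 CPM in control. In the libraries labelled knockout their sums were 1.83, 1.87 and 2.44 CPM. Of the 4 tested, 1 had an estimate above 0 and 3 below, with a median of -0.4 and no call by edgeR. The 8 leukocyte markers, which include the chain gene ITGB2 as the most abundant, summed to 19.9, 17.8 and 19.0 CPM and to 14.8, 16.9 and 19.6 CPM, with CD3E and MS4A1 at 0 counts throughout. PTPRC, the common leukocyte phosphatase, fell by 1.42 on the log2 scale from 6.39 CPM (edgeR, Benjamini-Hochberg adjusted p = 0.00107), while the other 2 tested leukocyte markers had estimates above 0 and the median of the list was 0.21. The part of these markers in the differences of the chain genes was not tested.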

How the data were processed

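RNA-seq counts of 6 HTori-3.1 libraries were analysed. The authors trimmed adapters and poor reads, aligned the rest to hg38 and deposited counts of uniquely aligned reads for each gene. Their processing notes name fastp 0.20.1 and HISAT2 2.0.4; the annotation and strandedness are not given in the sources used here. Columns were matched to samples by name. Of 22354 loci, 20018 were matched by name to GENCODE v44.

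edgeR 4.0.16 in R 4.3.3 gave CPM, log2 fold changes and p-values (TMM, default low-count filter, robust quasi-likelihood fit, testing both directions), adjusted over the 14860 loci kept. The biological coefficient of variation was 0.108. In this edgeR version 2 forms of the quasi-likelihood fit are offered. The bias-adjusted form was taken because it gave the numbers of calls known from an earlier processing of these counts, after the results of both forms had been seen; the earlier form is among the alternatives. Genes with an unadjusted p under 0.05, the list genes with an adjusted p under 0.05 and the most abundant of each partner list were named, though not every one is described; counts, medians and family sums cover all genes of a list. DESeq2 1.42.0 and limma 3.58.1 served as alternatives, and exact permutation tests used scipy 1.17.1. The fits and the GC correction were tested on simulated data. The chain genes, gene lists and motifs were chosen with earlier results of these data known.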

Additional observations from a re-analysis of the deposited data

How the results depend on the processing

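ITGA6, TNC, SMOC1 and PTPRC were called in the same direction under all 16 alternatives, ITGA3 and LAMB3 under 14, ITGB3 under 12 and LAMB1 under 11. The number of chain genes called higher, 0, became 1 with library size only, with at least 10 counts in every library, with DESeq2, with thinning to the smallest total and with edgeR's earlier quasi-likelihood fit, and 2 with the GC trend removed. With 1 library left out it lay between 0 and 1, and the number called lower between 2 and 7. With a fold change over 2 and p under 0.01, the study's limits applied here to edgeR's unadjusted p, 0 chain genes passed in either direction, and 84 loci were higher and 52 lower. The study used DESeq2 and calculated Benjamini-Hochberg rates, so these counts need not equal its own. Over all loci 310 were higher and 387 lower with DESeq2 and 501 and 617 with the GC trend removed. With library size only, 175 were higher and 155 lower. With 1 library left out these counts lay between 39 and 323 and between 65 and 360, highest without knockout replicate 1 and lowest without control replicate 2. The log2 fold change of BMAL1 then lay between 0.50 and 0.695. The median of the chain genes lay between -0.166 and -0.0445. The GC correction and the earlier fit were added after the data were seen. Under the earlier fit ITGA4 had an adjusted p of 0.0483, so its call depends on the form of the fit. No pairing by replicate number was seen in the deviations from the group means. Same-numbered libraries correlated at -0.0896, -0.0517 and -0.00471, and differently numbered ones at -0.0469 to 0.102. With 3 libraries in a group these values cannot show that the samples were not paired. The replicate block gave 97 loci higher and 119 lower, with 0 chain genes higher and 5 lower, LAMB1 at an adjusted p of 0.0806. The cause of these shifts was not tested. What limits the calls of the abundant chains was not tested. ITGA4 rests on 52 to 213 counts and the 6 genes not tested on at most 16 in a library.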
